A study of Mus musculus with 4 samples.

Results

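The endothelial genes described here were 9 genes that mark the cells lining blood vessels: the receptor genes Kdr, Flt1, Tek, Tie1 and Eng, the junction genes Cdh5, Cldn5 and Pecam1, and the clotting gene Vwf. They were taken by symbol, as all probe sets whose annotation gave exactly 1 symbol and that symbol on the list. The rule used no measured value, but the list was chosen with earlier results of these data known. That gave 12 probe sets of 12422 that were not controls. Vwf, Flt1 and Tie1 had 2 probe sets each and the other 6 genes had 1. The samples were total RNA from the CA1 area of the hippocampus of young male C57BL/6J mice, an inbred laboratory strain, handled by the experimenter and not treated in any other way. There was 1 sample at each of 1, 2, 4 and 6 hours, timed from the final shock given to other mice, and no shocked sample was analysed here. All 4 formed 1 group of handled controls. Whether 1 mouse or pooled mice gave a sample is not stated in the labels, so the p-values measure only the spread between these samples, which may be technical and in which hour, animal, dissection and array cannot be told apart.

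The vascular endothelial growth factor receptors Kdr and Flt1 bind growth factors that drive vessel growth, and the angiopoietin receptor Tek with its partner Tie1 keeps vessels quiescent. In brain, endothelial cells are sealed by tight junctions that contain claudin 5 and form the blood-brain barrier. Endothelium is a small part of hippocampal tissue, so its transcripts reach the array diluted by those of neurons and glia.

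Each value is a deposited signal, an intensity on a linear scale, unless it is called a log2 value or a log2 difference. A log2 difference is a sample's quantile-normalized value minus the mean of the other 3 samples, and is given with their SD. Values in the lowest 20% of the normalized table were raised to a floor (signal 35.0), so a value there is only an upper bound. Probe sets in the lowest 40% by mean (signal under 105) were not tested. In bulk tissue, fewer endothelial cells and less RNA per cell cannot be told apart. The level of a probe set was not compared with that of another, since probes differ in how they bind.

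Markers of CA1 neurons were read, but with no other hippocampal field to compare, their signals cannot check the CA1 label. Wfs1, a marker of CA1 pyramidal neurons, had a signal of 1964 to 2797 over the 4 samples, and Pou3f1, another, 489 to 726. The list's other genes on the array were Neurod6, a transcription factor of pyramidal neurons, with 811 to 1279, and Camk2a, a kinase of excitatory neurons, whose probe set was dim at 29.7, 94.9, 55.2 and 34.9, below the floor after normalization at 1 hour and not tested. Among the endothelial genes, 7 of 9 were above the floor in every sample by their brightest probe set, the exceptions being Kdr and Pecam1, each below it in 1 sample. The 1-hour array stood apart in the control probe sets of Gapdh, a glycolytic enzyme: its 3' over 5' signal was 4.52, while the later samples gave 1.18, 1.37 and 1.20. For beta-actin the ratio was 2.34 against 2.00, 1.80 and 1.76. Results over the 9 genes are given with and without the 1-hour sample.

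Flt1, Cldn5 and Eng were above the floor in every sample and each ordered the 4 samples differently, so their upstream sequences are shown as a growth factor receptor, a junction protein and a coreceptor of endothelium. RefSeq's promoter table (GRCm38.p6) listed 6 of the 9 genes, Eng, Kdr, Flt1, Tek, Tie1 and Cldn5. The 250 bases before the annotated start follow, 5' to 3' on the gene's strand, with capitals marking GGAA on either strand (read as TTCC on the other), the core that transcription factors of the ETS family recognise.

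Flt1 chr5:147726012-147726261 - strand: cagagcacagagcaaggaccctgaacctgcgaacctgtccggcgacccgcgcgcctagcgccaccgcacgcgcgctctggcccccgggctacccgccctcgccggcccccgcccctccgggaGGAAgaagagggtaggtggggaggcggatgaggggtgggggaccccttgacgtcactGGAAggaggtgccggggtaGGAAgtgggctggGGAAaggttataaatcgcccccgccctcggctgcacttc
Cldn5 chr16:18776597-18776846 + strand: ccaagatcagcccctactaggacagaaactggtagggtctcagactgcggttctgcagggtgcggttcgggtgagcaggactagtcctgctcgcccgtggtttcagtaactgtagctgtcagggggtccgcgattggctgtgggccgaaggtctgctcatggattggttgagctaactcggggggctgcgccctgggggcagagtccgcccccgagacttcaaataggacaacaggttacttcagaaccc
Eng chr2:32646345-32646594 + strand: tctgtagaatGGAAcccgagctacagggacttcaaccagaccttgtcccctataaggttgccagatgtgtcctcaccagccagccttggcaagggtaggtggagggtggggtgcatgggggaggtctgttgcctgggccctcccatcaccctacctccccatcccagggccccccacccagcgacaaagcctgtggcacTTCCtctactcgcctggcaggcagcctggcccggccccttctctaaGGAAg

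The core occurred 4 times before Flt1, 3 times before Eng and 0 times before Cldn5. Among the others it occurred 4 times before Kdr, 2 times before Tek and 7 times before Tie1. Of 32851 listed promoters, 93.4% held it in the same window, with a median of 3 matches, and 6.55% did not, as for Cldn5. Its extension CAGGAA, every match of which overlaps the core, was present before Tek and Tie1 and in 25.7% of all promoters. The motif AGATAA, recognised by GATA factors, was in 0 of the 6 and in 9.99% of all, both strands counted. Flt1 had a TATAAA starting 31 bases before its start, searched on the gene's strand only, which 7.59% of promoters hold somewhere in the window. A match is a description of the letters and not a measured site.

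Kdr, the main signalling receptor for vascular endothelial growth factor, gave signals of 23.1, 127, 176 and 151 in the 1-, 2-, 4- and 6-hour samples. The 1-hour sample alone was below the floor, and the other 3 lay within 0.54 on the log2 scale of each other. With the floor in its place, the 1-hour sample was at least 4.25-fold lower than the other 3 (log2 difference -2.09, SD of the other 3 0.27). Among probe sets tested, 4.55% lay 2-fold or more below the others in that sample. Of the 9 genes, by brightest probe set, only Kdr did. At 4 hours Kdr lay 1.04 above the others, where 1.07% of tested probe sets reached 2-fold, but the 1-hour value at the floor is among those others. The low 1-hour value stands beside the Gapdh ratio of 4.52 in the same sample, whose part in it was not tested. Kdr had a mean just below the filter for tests, a signal of 104 after normalization, and so received no p-value with all 4 samples.

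Flt1, which binds the same growth factor and acts largely as a decoy, was measured by 2 probe sets. The brighter, 98452_at, gave 287, 474, 253 and 298 in the order of hours. The dimmer, 98453_at, gave 75.0, 109, 46.9 and 57.7. Both were highest in the 2-hour sample and lowest in the 4-hour sample. The brighter lay 0.72 above the others on the log2 scale in the 2-hour sample (SD of the other 3 0.12), a factor of 1.65, and the dimmer 0.81 (SD 0.33). Once each was centred on its own mean, the 2 probe sets differed by a root mean square of 0.18 over the 4 samples, the closest of the 3 genes measured more than once. Neither reached 2-fold above the others, as 1.27% of tested probe sets did in that sample.

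Tek, the receptor for angiopoietins, gave signals of 132, 110, 62.4 and 75.1. The 1- and 2-hour samples were above the 4- and 6-hour samples, and the whole range was 1.04 on the log2 scale, or 0.71 without the 1-hour sample. Tie1, an orphan receptor that forms complexes with Tek, gave different pictures with its 2 probe sets. Probe set 161184_f_at, whose suffix marks probes shared by a family of sequences, gave 83.6, 83.1, 77.0 and 70.0, the narrowest range of the 9 genes at 0.25. Probe set 99936_at gave 14.4 and 27.8 at 1 and 2 hours, both below the floor, and 122 and 85.7 at 4 and 6 hours. The former was lowest at 6 hours and the latter lowest at 1 and 2 hours, with a root mean square difference of 0.86 between them. No direction for Tie1 is therefore given.

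Eng encodes endoglin, a coreceptor for transforming growth factor beta and bone morphogenetic proteins on endothelial cells. It gave 1376 at 1 hour, then 790, 764 and 619 at 2, 4 and 6 hours. The 1-hour value lay above the other 3, which spanned 0.35 on the log2 scale. The excess over those samples was 1.93-fold (log2 difference 0.95, SD 0.20). That is short of the 2-fold that 1.76% of tested probe sets reached above the others at 1 hour.

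**Figure D1:**
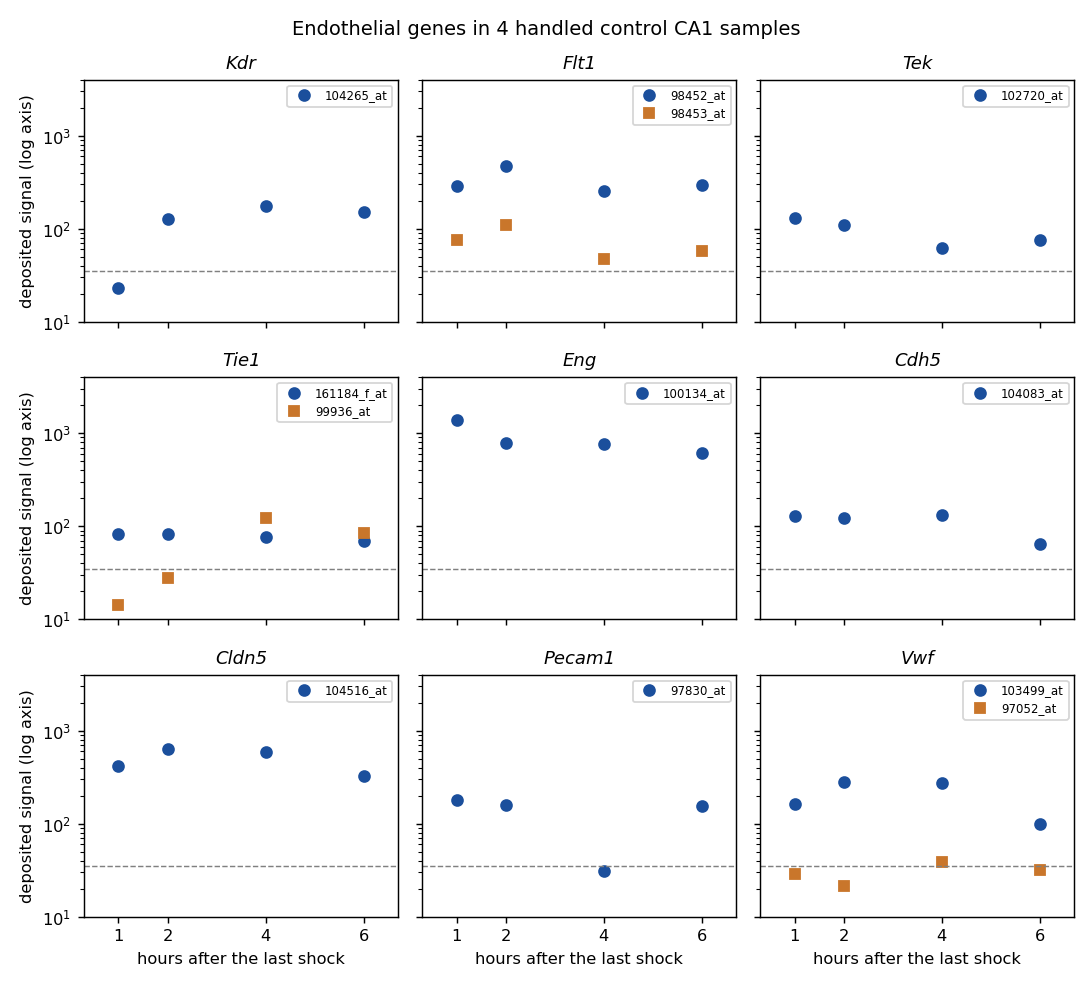
Deposited signal (log axis) of each endothelial probe set against hours after the last shock, 1 sample per time, with circles for the brightest probe set of a gene and squares for the other; the dashed line is the floor of 35.0. Kdr was below it at 1 hour (23.1) and Pecam1 at 4 hours (30.9), while the 2 Flt1 probe sets ran in parallel and those of Tie1 did not. The dimmer Vwf probe set was at the floor in 3 of 4 samples, so the 2 of that gene cannot be compared.

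The junction genes followed. Cdh5 encodes vascular endothelial cadherin, the adhesion molecule of the adherens junction, and gave signals of 129, 122, 132 and 65.1. The 1-, 2- and 4-hour samples were close together, and the 6-hour sample was 1.93-fold below them (log2 difference -0.95, SD of the other 3 0.11). Cldn5, the main tight junction protein of the blood-brain barrier, gave 415, 638, 590 and 330. The 2- and 4-hour samples were high and the 6-hour sample was the lowest, 1.66-fold below the others (log2 difference -0.73, SD 0.31). Pecam1, an adhesion molecule that endothelium shares with platelets and leukocytes, gave 178, 160, 30.9 and 155. Its 4-hour sample was below the floor and at least 4.68-fold lower than the other 3, which lay close together (log2 difference -2.23, SD 0.13). In the 4-hour sample 1.94% of tested probe sets lay 2-fold or more below the others, and of the 9 genes only Pecam1 did. Cdh5 and Cldn5 were not low in that sample, at 0.44 and 0.42 above the others.

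Vwf encodes von Willebrand factor, which endothelium stores and secretes to tether platelets. Its probe set 103499_at gave signals of 163, 281, 275 and 99.6. The 2- and 4-hour samples stood above the 1-hour sample and the 6-hour sample was the lowest, 2.30-fold below the others (log2 difference -1.20, SD of the other 3 0.42). In the 6-hour sample 1.61% of tested probe sets lay 2-fold or more below the others, and of the 9 genes only Vwf did. Its second probe set, 97052_at, gave 28.5, 21.3, 38.8 and 31.6, at the floor in 3 of 4 samples, so it could not show such a pattern. Vwf and Cldn5 had the most similar patterns of any 2 of the 9 genes, with a root mean square difference of 0.22 between centred log2 values, followed by Cdh5 and Cldn5 with 0.27 and by Eng and Tek with 0.28. These are descriptions over 4 samples that share their arrays.

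**Figure D2:**
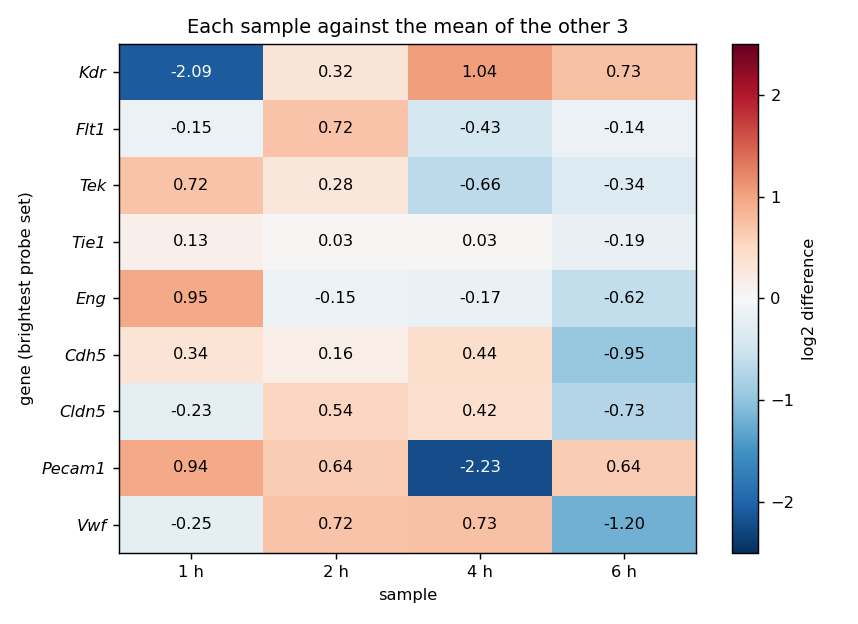
Log2 difference of each sample (columns) from the mean of the other 3, for the brightest probe set of each endothelial gene (rows); red is higher and blue lower, and Kdr at 1 hour and Pecam1 at 4 hours are bounds set by the floor. The 6-hour column is negative for 7 of 9 genes, and the lowest single values are -2.23 for Pecam1 at 4 hours and -2.09 for Kdr at 1 hour.

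Read across the 9 genes, the 6-hour sample was the lowest of the 4 for 5, Vwf, Eng, Cdh5, Tie1 and Cldn5, against 24% of tested probe sets. For Tie1 this rests on the probe set with the narrow range. The 1-hour sample was the highest for 4, Eng, Pecam1, Tek and Tie1, against 35%. These shares cover tested probe sets only, while Kdr, Tek and Tie1 were not tested. Among the 6 tested genes the 6-hour sample was the lowest for 4 and the 1-hour sample the highest for 2. The median log2 difference over the 9 genes was 0.13, 0.32, 0.03 and -0.34 in the 1-, 2-, 4- and 6-hour samples, where the median of all tested probe sets was 0.05, 0.01, 0.01 and 0.00. The middle gene was Tie1, by that same probe set, at 1 and 4 hours and Tek at 6 hours. At 2 hours it was Kdr, whose 1-hour value at the floor is among the others. In the 2-hour sample 8 of 9 genes were above the mean of the others, against 3836 of 7456 tested probe sets. In the 6-hour sample 7 of 9 were below, against 3722. Tie1, for which no direction is given, is counted in both, at 0.03 and -0.19. Without the 1-hour sample the medians were 0.52, 0.16 and -0.22 at 2, 4 and 6 hours, with 8, 6 and 2 of 9 genes higher. With the floor raised to the 40th percentile the 2-hour median was 0.00 and the 6-hour median -0.14, and the 4-hour median was 0.42 with a gene's probe sets averaged. A range of 2-fold or more over the 4 samples was found for 6 of 9 genes, Vwf, Eng, Cdh5, Pecam1, Kdr and Tek, against 17.9% of tested probe sets. Among the 6 tested genes, the set like that share, it was found for 4. Over the 2-, 4- and 6-hour samples alone it was found for 3 of 9, Vwf, Cdh5 and Pecam1, against 9.13%, and without the 4- or the 6-hour sample it was also 3. With the floor at the 40th percentile it was found for 2.

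A linear trend over time was fitted to all 7456 tested probe sets with limma. At an adjusted p under 0.05 it called 0 of them (0%), and 467 (6.26%) had an unadjusted p under 0.05. Of the endothelial probe sets 6 of 12 were tested, those of Vwf, Eng, Cdh5, Pecam1, Flt1 and Cldn5, and 0 were called. The fitted log2 changes from 1 to 6 hours lay between -0.96 and -0.32, with limma adjusted p of 0.738 to 0.904. Eng had the lowest p, with a change of -0.96 ± 0.32 (SE), an unadjusted limma p of 0.0194 and an adjusted p of 0.738. Without the 1-hour sample its change from 2 to 6 hours was -0.35 ± 0.27 (SE), while that of Cldn5 was -0.95 ± 0.33 and that of Vwf -1.45 ± 0.55, each with a limma adjusted p of 1. Without that sample Flt1 changed by -0.65 ± 0.41 (SE), while Kdr, which then passed the filter, changed by 0.31 ± 0.57, a rise. Cdh5 and Pecam1 did not pass the filter in that fit. The fit of all 4 samples had 2 residual degrees of freedom. In simulated data with this spread it called 1 of 50 changes of 1 log2 unit, so 0 called does not show that there was no trend.

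Genes that act with the endothelial genes were then read from lists. Of 14 growth factor and angiopoietin partners on the array 7 were tested and 0 passed. Ptprb, the phosphatase that removes phosphate from Tek, gave signals of 220, 158, 99.5 and 156. Pgf, a ligand of Flt1, gave 156, 229, 192 and 331, and Epas1, a hypoxia-inducible transcription factor of endothelium, 185, 228, 232 and 159. Epas1, like Vwf, was lowest at 6 hours. The ligands Vegfa, Angpt1 and Angpt2, named after their values were seen, stayed below the filter, with Vegfa at 49.2, 68.8, 58.9 and 38.0. Of 10 junction partners 8 were tested and 0 passed. Jam3, a junctional adhesion molecule, gave 234, 285, 286 and 167, Ctnna1, which links cadherins to actin, 543, 338, 418 and 462, and Tjp1, a tight junction scaffold, 1093, 1175, 737 and 953. The median range of the tested junction partners was 0.50 on the log2 scale, and 0 of the 8 had a range of 2-fold.

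Of 13 genes of the endoglin pathway 9 were tested and 0 passed. Bmpr2, a receptor of bone morphogenetic proteins, gave signals of 138, 333, 254 and 213, Id1, a transcriptional target of that pathway, 167, 248, 288 and 166, and Smad4, its shared signal transducer, 889, 690, 673 and 562. Smad4, like Eng, was highest at 1 hour and lowest at 6 hours. Among 8 partners of von Willebrand factor 3 were tested and 0 passed. Gp9 and Gp1bb, subunits of its platelet receptor, gave 102, 115, 214 and 72.5, and 252, 141, 289 and 156, and Plat, the tissue plasminogen activator that neurons also make, gave 1200, 1391, 959 and 939.

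Other genes of vessels and blood did not all share one order of samples. Of 29 other endothelial genes on the array 16 were tested and 0 passed. The median difference over the 29, some of them at the floor in every sample, was 0.00 at 2 hours and 0.00 at 6 hours. Over the 16 tested it was 0.05 at 2 hours and -0.03 at 6 hours. Sox17, a transcription factor of arterial endothelium, gave signals of 348, 138, 178 and 232, Emcn, an endothelial sialomucin, 216, 141, 87.2 and 141, and Cav1, the coat protein of caveolae, 235, 243, 152 and 110. Emcn had its lowest value at 4 hours, as Pecam1 did, but at 87.2 it was above the floor. Of 10 barrier transport genes 7 were tested and 0 passed, with 8 of 10 below the mean of the others at 6 hours, against 3722 of 7456 tested probe sets. Slc2a1, the glucose transporter of the barrier, gave 302, 439, 241 and 261, highest at 2 hours and lowest at 4 hours as both Flt1 probe sets were. Abcb1a, the drug efflux pump, gave 163, 115, 128 and 82.4, and Alpl, an alkaline phosphatase of brain capillaries, 127, 83.2, 239 and 213. Of 13 genes of mural cells, the pericytes and smooth muscle around the endothelium, 8 were tested and 0 passed. Des, an intermediate filament of muscle cells and pericytes, gave 212, 56.3, 159 and 146, Anpep, a surface peptidase of pericytes, 63.0, 206, 187 and 195, and Acta2, smooth muscle actin, 297, 256, 161 and 210.

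Markers of blood and of the meninges were lower in the 6-hour sample too. Of 9 blood genes on the array 8 were below the mean of the others there, with a median log2 difference of -0.38. Only 3 of the 9 were tested, and all 3 were below, while some of the rest were at the floor in that sample. Of all 7456 tested probe sets 3722 were below. The summed signal of the blood genes was 4192, 3553, 3647 and 2793 in the order of hours. Hba-a1, a haemoglobin chain, gave 3185, 2590, 2834 and 2144, Hbb-b2, another, 424, 465, 442 and 346, and Slc4a1, the anion exchanger of red cells, 205, 152, 105 and 70.9. Of 10 meningeal and fibroblast genes 8 were below there, with a median of -0.35, and of the 7 tested 6 were below. Their summed signal ranged from 11080 at 6 hours to 19405 at 4 hours. Col1a1, a collagen chain, gave 411, 324, 130 and 323, Ptgds, a prostaglandin synthase of the meninges that oligodendrocytes also make, 8209, 6231, 11824 and 4732, and Mgp, a matrix protein of vessel walls, 339, 301, 325 and 178. The 9 endothelial genes themselves summed to 2787, 2786, 2361 and 1862, of which Eng alone gave 1376, 790, 764 and 619. Such sums are weighted towards the brightest probe set, here Eng, Hba-a1 for blood and Ptgds for the meninges. They do not give the order of samples for the other genes. Neuronal markers had the opposite sign, with a median of 0.38 and 7 of 9 higher at 6 hours, against 3734 of 7456 tested probe sets. So did oligodendrocyte markers (0.23, 5 of 6 higher) and microglial markers (0.19, 6 of 7 higher). The 4 genes of CA1 pyramidal neurons lay at -0.14, with 2 higher and 2 lower. The 13 mural genes lay at -0.08, with 5 higher and 7 lower. At 1 hour the neuronal markers lay at -0.58, with 7 of 9 lower, against 3383 of tested probe sets. Leaving out the 1-hour sample was a choice made after seeing the data. The 6-hour medians were then -0.17 for blood with 6 of 9 lower and -0.32 for the meninges with 8 of 10 lower. They were 0.20 for neurons with 6 of 9 higher, 0.23 for oligodendrocytes with 5 of 6 higher, and -0.22 for the endothelial genes. The microglial median was then only 0.01, with 4 of 7 higher and 3 lower. The choroid plexus list, of which 6 genes were on the array, lay at 1.01 in the 1-hour sample with 6 of 6 higher, Igfbp2 by only 0.002. Of all 7456 tested probe sets 4073 were higher in that sample. The summed signal of the list was 3464 there against 1062 to 1319 in the others, and Ttr, its defining gene, gave 2246 against 143 to 353. The median of the 7 astrocyte markers lay between -0.11 and 0.01 in the 4 samples, while Slc1a2, a glutamate transporter with the widest range among them, gave 221, 318, 371 and 409. The part of other cell types in the endothelial values was not tested.

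**Figure D3:**
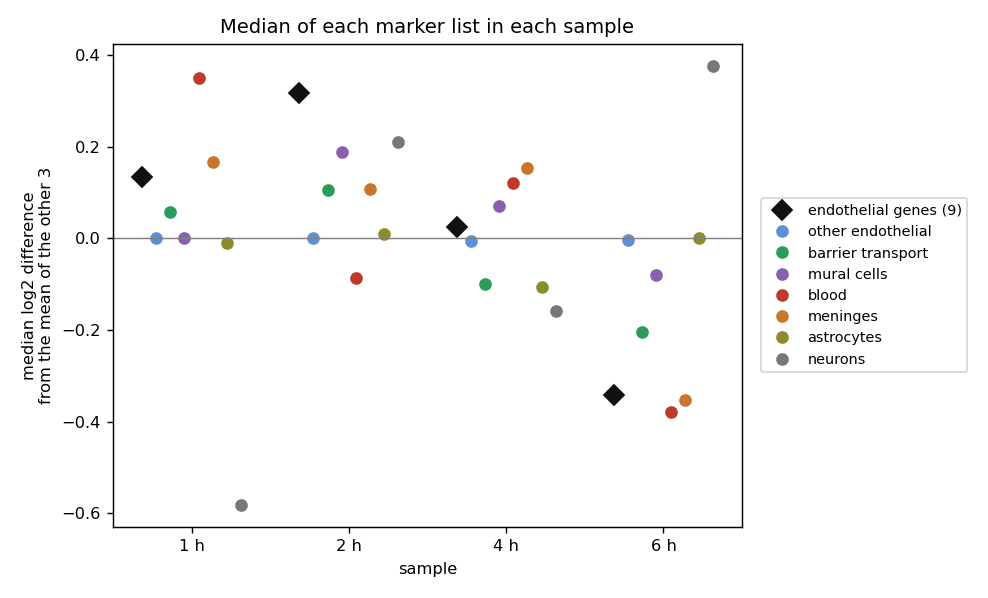
Median log2 difference of each sample from the mean of the other 3, for the 9 endothelial genes (diamonds) and for 7 marker lists (circles), over all genes of a list that were on the array. At 6 hours the endothelial (-0.34), blood (-0.38) and meningeal (-0.35) medians lie together below 0 and the neuronal median (0.38) above, while at 2 hours the endothelial median (0.32) is the highest shown.

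The genes whose pattern over the 4 samples was most like an endothelial gene were found by the root mean square difference of centred log2 values, among 6739 tested probe sets with 1 symbol. It was done for the 3 genes with the widest range among those above the floor throughout. For Vwf they were Mrps16 (0.10), a mitochondrial ribosomal protein, and Hoxa4 (0.17), against a median of 0.64 over all candidates. For Eng they were Lpl (0.05), lipoprotein lipase, with signals of 403, 256, 250 and 185, and Limch1 (0.06), against 0.46. For Cdh5 they were Hivep3 (0.03), a zinc finger protein, and Fzd7 (0.04), a Wnt receptor, against 0.46. These likenesses rest on 4 samples and are a description.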

How the data were processed

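RNA from 4 handled control CA1 samples was measured on arrays of 1 colour. The authors deposited an intensity per probe set on a linear scale. The arrays share 1 level: without the 2% highest and 2% lowest values, every column averages 500.3, so the deposited values were already scaled. Sources used here name neither software nor labelling, and no detection call, batch or date was used. Arrays have no count depth, and their number limits the precision.

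Gene names come from the platform annotation, by which 10833 probe sets had 1 symbol, 396 several and 1193 none. Current symbols were looked up in a RefSeq gene table (GRCm38.p6), where the gene identifiers of 10817 were found. Probe positions within transcripts were not used.

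The columns were quantile normalized, floored at the 20th percentile and taken to log2. Probe sets with a mean at or above the 40th percentile entered a model with hours as a linear term in limma 3.58.1 (R 4.3.3; lmFit, then eBayes with an intensity trend), two-sided, with Benjamini-Hochberg adjustment over 7456 probe sets; 66 controls were left out. The fit was tested on simulated data with the residual spread of these samples, 50 probe sets at each size of change. It called 1 of those changed by 1 log2 unit, 20 changed by 2, 31 changed by 4 and 50 changed by 8. Each sample was also set against the mean of the other 3 without a test. A gene of a list entered by its brightest probe set. From each list of partners, vessels, blood and meninges the 3 tested genes with the widest range were named, and a gene outside that rule is marked. Every gene of the CA1 list on the array was named. Of the choroid plexus list only Ttr and Igfbp2 were named, and of the astrocyte list only Slc1a2. The neuronal, oligodendrocyte and microglial lists were only counted. Alternatives were the deposited scale, equal medians, floors at the 40th and 5th percentile, no filter, ranked times, eBayes without the intensity trend, the mean of a gene's probe sets, and each sample left out. The members and lists were chosen with earlier results of these data known. Plots used matplotlib 3.10.9 (Python 3.11.15).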

Additional observations from a re-analysis of the deposited data

Results flagged for a closer look

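A sample far from the other 3, by Dixon's test for 4 samples at the 95% level, was found for 3 of 36 values examined, leaving out probe sets at the floor in more than 1 sample; chance flags about 1 in 20. Pecam1 had a signal of 30.9 in the 4-hour sample against 155 to 178. Anpep had 63.0 in the 1-hour sample against 187 to 206. The Gapdh 3' over 5' ratio was 4.52 in the 1-hour sample against 1.18 to 1.37.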

How the results depend on the processing

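The limits lie in the number of arrays and in low signals. Under every alternative run 0 endothelial probe sets passed the trend test. Over all probe sets 0 passed, except that leaving out single samples gave 0 to 3, the 3 without the 2-hour sample. The trend of Vwf ranged from -1.45 to 0.63 with a sample left out, that of Cdh5 from -0.88 to 0.11 and that of Cldn5 ranged from -0.95 to 0.40. All 3 turned positive without the 6-hour sample, while Cdh5 did not pass the filter without the 1- or the 4-hour sample. The trends of Eng and Flt1 kept their sign under all alternatives, and that of Pecam1 under those in which it passed the filter, which did not include leaving out the 1-, 2- or 6-hour sample. With the floor at the 40th percentile, which hides dim probe sets, the median over the 9 genes at 2 hours became 0.00, that at 6 hours -0.14, and 2 genes kept a range of 2-fold. With samples left out, 3 to 6 genes did. With a gene's probe sets averaged, the 4-hour median was 0.42, where the dim Tie1 probe set enters. With samples left out, the medians ranged from 0.03 to 0.16 at 1 hour, 0.33 to 0.52 at 2 hours, -0.04 to 0.16 at 4 hours and -0.63 to -0.22 at 6 hours. The lowest 6-hour value was that without the 4-hour sample. No paired analysis was possible because there is 1 group and the sample numbers pair nothing.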
